A study of Mus musculus with 10 samples.

Results

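A set of 9 genes of interferon-linked cell death was followed through 10 RNA sequencing libraries of immortalised mouse embryonic fibroblasts, connective-tissue cells grown from embryos. The 9 genes, Zbp1, Ripk1, Ripk3, Mlkl, Casp1, Casp8, Fas, Tnfsf10 and Xaf1, were taken by name from 23337 gene symbols, and all 9 were found in every library. All 9 were also among the 12313 genes that passed a filter on low counts. Casp1 passed only through WT-labelled libraries with interferon, and Tnfsf10 only through libraries with interferon, since their untreated libraries held under 10 reads each. By label the cells were either Slfn2 WT (here WT-labelled) or Slfn2 KO, a knockout of that gene (here KO-labelled). Slfn2 is a Schlafen family gene that interferon induces. Cells were left untreated or given mouse interferon-β (IFN-β) at 5000 IU/ml for 6 h, giving 3 libraries per WT-labelled group and 2 per KO-labelled group. The labels describe replicate wells of WT cells and of KO cells, so the p-values measure the spread between wells, not between independently derived lines, and the number of clones and the deleted part of Slfn2 are not stated.

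Type I interferon binds its receptor and, through STAT and IRF transcription factors, raises a large set of antiviral genes. ZBP1 is a sensor of Z-form nucleic acids that recruits the kinase RIPK3. RIPK3 phosphorylates MLKL, which then breaks the plasma membrane in the form of death called necroptosis. RIPK1 is a kinase and scaffold below death receptors. Caspase-8, the initiator caspase of death receptor complexes, cleaves RIPK1 and RIPK3 and so restrains necroptosis. FAS is a death receptor, and Tnfsf10 encodes the death ligand TRAIL. XAF1 opposes the caspase inhibitor XIAP, and caspase-1 is the inflammasome protease that matures IL-1β and cleaves gasdermin D.

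The promoters of the genes were read for the short motifs that interferon-activated factors are known to bind. RefSeq promoter windows (GRCm38.p6, from 250 bases before to 50 after the start) matched 8 of the 9 genes, Ripk1 with 2 windows, and Zbp1 had no entry. The motifs were GAAANNGAAA (the core of the interferon-stimulated response element), GAANNGAAA (an interferon regulatory factor element), TTCNNNGAA (a STAT element) and the half-site GAAACT, each searched on both strands. They overlap one another in part, and 3.44%, 7.52%, 8.3% and 15.8% of all 32851 RefSeq windows of this length held them, in that order. The 4 windows printed here were picked because they place a gene that rose steeply beside one that did not. They are Xaf1 (chr11:72301529-72301650) and Tnfsf10 (chr3:27316977-27317076), which both rose with IFN-β, and Casp8 (chr1:58802382-58802501) and the second Ripk1 window (chr13:34002754-34002878). All are on the plus strand, and capitals mark the matches.
Xaf1: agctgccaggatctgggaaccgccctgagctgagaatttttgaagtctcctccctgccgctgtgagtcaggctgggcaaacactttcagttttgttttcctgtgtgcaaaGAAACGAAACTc
Tnfsf10: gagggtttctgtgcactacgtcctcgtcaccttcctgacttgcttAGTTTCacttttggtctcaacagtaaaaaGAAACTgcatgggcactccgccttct
Casp8: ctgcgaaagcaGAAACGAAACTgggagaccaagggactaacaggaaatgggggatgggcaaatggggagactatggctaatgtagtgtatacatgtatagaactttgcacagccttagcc
Ripk1: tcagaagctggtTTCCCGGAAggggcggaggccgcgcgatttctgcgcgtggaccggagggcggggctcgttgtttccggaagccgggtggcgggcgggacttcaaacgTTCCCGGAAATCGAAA
Xaf1 held GAAACGAAA at bases 11 to 19 after its start, running into GAAACT at 16 to 21. Casp8 held the same letters, GAAACGAAA at −109 to −101 and GAAACT at −104 to −99, where positions count from the start and skip 0. The start used for this Casp8 window lies within the annotated gene, whose span begins at 58795374, so the stretch is not at the gene's outer end. Tnfsf10 held the half-site on the minus strand at −55 to −50 and on the plus strand at −26 to −21. Ripk1 held GAAATCGAAA across its start, at −5 to 5, and TTCCCGGAA at −108 to −100 and at −11 to −3, and its window also held the half-site on the minus strand at −127 to −122, just before the printed stretch. The remaining windows held less: a half-site in Ripk3, TTCTGGGAA at −93 to −85 in Fas, and none of these letters in Mlkl, Casp1 or the first Ripk1 window. A match is a description of the letters only.

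Each library held 13565815 to 16329729 recovered reads, so the floor of 3 reads was 2.73 to 3.29 normalised reads. Slfn2 held 15.5 to 18.7 normalised reads in untreated WT-labelled libraries and 449 to 573 with IFN-β, against 34.9 to 46.1 and 75 to 171 in KO-labelled libraries, so its reads over the whole gene do not by themselves settle the knockout label. Of the fibroblast markers, 10 of 10 were detected, with summed levels of 171874 to 260188 and 174681 to 249027 normalised reads in WT-labelled cells (untreated and IFN-β) and 233997 to 375528 and 266726 to 371332 in KO-labelled cells. Dcn and Lum, matrix proteoglycans in that list, were called lower in KO-labelled cells in both treatments. Lum held 2 and 5 reads in the KO-labelled groups (untreated and IFN-β) and passed the filter only through WT-labelled libraries, so nothing is read from its calls. The 8 macrophage markers summed to 258 to 419 in WT-labelled and 145 to 204 in KO-labelled libraries, with Emr1 and Fcgr1 at 0. Cd14 made up most of the sum in WT-labelled libraries (205 to 346) but not in every KO-labelled library (58.3 to 147). Epithelial sums reached 5.24 and endothelial sums 20.2, the latter with Cldn5 at 0. Libraries with the same replicate number deviated together from their group means, so a fit with that number as a block is given wherever it changes a call. Library 1 was the lowest of its group in all 4 groups for Ripk1, Casp8, Fas and Tnfsf10.

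IFN-β raised 4 of the 9 genes in both labelled genotypes, the sensor Zbp1, the necroptosis executioner Mlkl, the ligand Tnfsf10 and Xaf1. Their normalised means rose 35.3-fold, 6.27-fold, 212-fold and 50.6-fold in WT-labelled cells and 221-fold, 5.43-fold, 206-fold and 45.7-fold in KO-labelled cells. Over all genes tested, 2.21% were called higher in WT-labelled and 1.83% in KO-labelled cells. The median log2 difference of the 9 genes was 2.15 in WT-labelled and 1.43 in KO-labelled cells, against −0.03 over all genes tested in each. These medians are the values of Casp1 and of Fas, in that order, and neither gene was called there without the block. Casp1 also passed the filter only through WT-labelled IFN-β libraries, so nothing about the set is read from the medians. With the replicate block 5 of the 9 were called in each genotype, Ripk1 joining in WT-labelled and Fas in KO-labelled cells, where the block called 4.68% and 3.37% of all genes higher. Ripk3 and Casp8 were not called in either genotype by either fit. Tnfsf10, kept by the filter through its IFN-β libraries, was also called with no filter (adjusted p = 0.00034 and 0.0017).

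**Figure D1:**
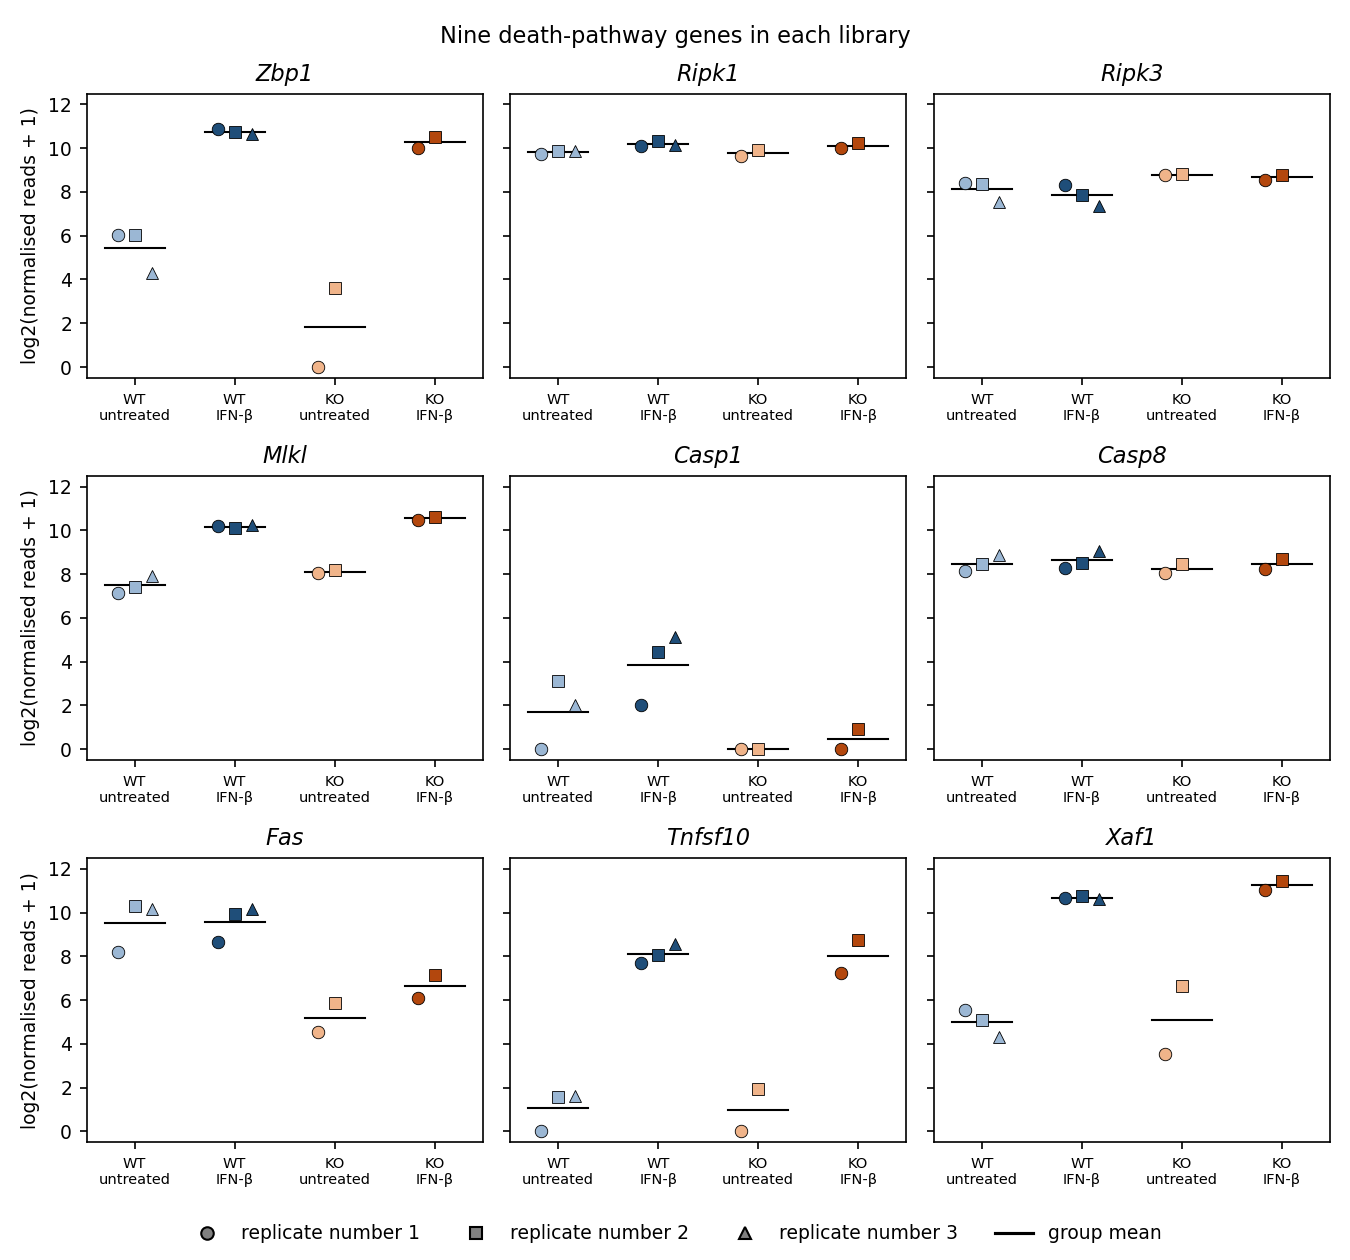
Levels of the 9 genes in every library, as log2 of normalised reads plus 1. Each point is a library, its shape gives the replicate number, and the bar is the group mean on this scale. Zbp1, Mlkl, Tnfsf10 and Xaf1 stand higher in every IFN-β library than in any untreated library, and Fas stands lower in every KO-labelled library than in any WT-labelled library.

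Zbp1 (chromosome 2, 173206612 to 173218923, minus strand, GRCm38) is the sensor at the head of the pathway. It held 63.7, 64.9 and 18.6 normalised reads in untreated WT-labelled libraries 1, 2 and 3, and 1900.1, 1701 and 1599 with IFN-β. KO-labelled libraries 1 and 2 had 0 and 11.3 before treatment against 1027 and 1472 after it. The groups thus did not overlap between treatments, and both untreated KO-labelled libraries were below all 3 untreated WT-labelled libraries. The IFN-β difference was 5.31 ± 0.82 (SE) on the log2 scale in WT-labelled cells (adjusted p = 0.00716) and 8.45 ± 1.00 in KO-labelled cells (adjusted p = 0.00159). The KO-labelled ratio of 221 rests on 12 untreated reads, all from library 2, and the ratio of pooled reads had a 95% counting interval of 121 to 412.

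Ripk1 (chromosome 13, 34002363 to 34037147, plus strand) and Ripk3 (chromosome 14, 55784995 to 55788865, minus strand) encode the kinases between the sensor or receptor and MLKL. Ripk1 held 849.9, 949.9 and 926 normalised reads in untreated WT-labelled libraries and 1111, 1278 and 1132 with IFN-β. Its KO-labelled values were 808 and 969.5, then 1018 and 1201 after treatment. Every IFN-β library exceeded every untreated library of its genotype, by 1.22 to 1.35 times between libraries of the same number. The difference of 0.37 ± 0.14 in WT-labelled cells had an adjusted p of 0.515, and of 0.0422 with the replicate block. That blocked call was lost when any 1 of the 10 libraries was left out (adjusted p up to 0.2). In KO-labelled cells the difference was 0.32 ± 0.17 (adjusted p = 1, and 0.208 with the block). The span of Ripk1 overlaps Serpinb6a on the other strand, and the strand setting of the counting is not stated.

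Ripk3 held 341, 331 and 187 normalised reads in untreated WT-labelled libraries and 316, 235 and 162 with IFN-β. KO-labelled libraries gave 432 and 453, then 373 and 440.1 after IFN-β. In each of the 5 same-number pairs the IFN-β library was the lower, at 0.709 to 0.971 of its untreated partner, yet the groups overlapped in both genotypes. The difference was −0.27 ± 0.30 (adjusted p = 1, and 0.425 with the block; 95% interval −0.95 to 0.41) in WT-labelled cells. It was −0.13 ± 0.37 in KO-labelled cells (adjusted p = 1, and 0.968 with the block).

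Mlkl (chromosome 8, 111311797 to 111338177, minus strand), the pore-forming executioner of necroptosis, held 139, 170.4 and 243 normalised reads in untreated WT-labelled libraries and 1158, 1109.7 and 1198 with IFN-β. The pair of untreated KO-labelled libraries had 263 and 291, and the treated pair 1423 and 1588. The lowest IFN-β library was thus well above the highest untreated library in each genotype. The difference was 2.68 ± 0.20 in WT-labelled (adjusted p = 7.23e-05) and 2.44 ± 0.25 in KO-labelled cells (adjusted p = 0.000604). Same-number ratios were 8.3, 6.51 and 4.94 in WT-labelled cells and 5.41 and 5.46 in KO-labelled cells.

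Tnfsf10 (chromosome 3, 27317028 to 27342427, plus strand), the TRAIL ligand gene, was nearly silent without IFN-β. It held 0, 1.94 and 2.06 normalised reads in untreated WT-labelled libraries and 204, 269.9 and 374 with IFN-β. KO-labelled cells had 0 and 2.83 before treatment and 152 and 430.1 after it. Every untreated library was at or below the floor of 3 reads. With 4 untreated WT-labelled reads and 3 untreated KO-labelled reads in all, the ratios of means were 212 and 206, and those of pooled reads had counting intervals of 80.6 to 762 and 68.9 to 984. The difference was 7.05 ± 0.67 (adjusted p = 0.000304) and 7.04 ± 0.82 (adjusted p = 0.0014).

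Xaf1 (chromosome 11, 72301629 to 72313733, plus strand), the XIAP antagonist, held 46.1, 32.9 and 18.6 normalised reads in untreated WT-labelled libraries and 1632, 1709 and 1596 with IFN-β. Its KO-labelled values were 10.5 and 98 before treatment, then 2123 and 2829.5. The WT-labelled IFN-β libraries lay close together, and both KO-labelled IFN-β libraries lay above them. The difference was 5.71 ± 0.66 in WT-labelled (adjusted p = 0.00114) and 6.18 ± 0.81 in KO-labelled cells (adjusted p = 0.00328). Same-number ratios were 35.4, 51.9 and 85.9 in WT-labelled cells, and 202 and 28.9 in KO-labelled cells, so the KO-labelled fold of 45.7 depends strongly on which untreated library is used. The ratio of means was smaller in KO-labelled cells and the log2 difference larger, so the order of the genotypes depends on the measure. For Zbp1, Mlkl, Tnfsf10 and Xaf1 the call held in both genotypes with each of the 10 libraries left out in turn, the highest adjusted p being 0.039.

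Fas (chromosome 19, 34290666 to 34327772, plus strand) is the receptor of Fas ligand. It held 291, 1249 and 1130.4 normalised reads in untreated WT-labelled libraries and 405, 971 and 1134 with IFN-β. Levels were far lower in KO-labelled libraries, 22 and 57.5 before treatment and 66.5 and 143 after it. Library 1 was the lowest in every group, and WT-labelled values overlapped fully between treatments. The WT-labelled difference was 0.04 ± 0.65 (adjusted p = 1, and 0.942 with the block; 95% interval −1.43 to 1.51). In KO-labelled cells both IFN-β libraries exceeded both untreated libraries, by 3.02 and 2.49 times between same numbers, a difference of 1.43 ± 0.80 (adjusted p = 1) that became 1.43 ± 0.23 with the replicate block (adjusted p = 0.00931). Leaving out the second untreated or the first treated KO-labelled library ended the blocked call (adjusted p up to 0.091).

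Casp8 (chromosome 1, 58795374 to 58847503, plus strand), the initiator caspase, held 284, 349 and 462 normalised reads in untreated WT-labelled libraries and 312, 368 and 539 with IFN-β. KO-labelled levels were similar, 267 and 349 before treatment and 299.9 and 414 after it. The groups overlapped, while each IFN-β library was 1.06 to 1.19 times its same-number partner. The difference was 0.14 ± 0.27 in WT-labelled cells (95% interval −0.46 to 0.75, adjusted p = 1, and 0.554 with the block) and 0.21 ± 0.33 in KO-labelled cells (adjusted p = 1, and 0.73 with the block).

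Casp1 (chromosome 9, 5298517 to 5307265, plus strand), the inflammasome protease, was barely detected. It held 0, 7.75 and 3.1 normalised reads in untreated WT-labelled libraries, and 3.09, 21 and 33.7 with IFN-β. Only 1 read fell in the 4 KO-labelled libraries, at 0.911 normalised reads in IFN-β library 2, and the others held 0. The WT-labelled groups overlapped, with a difference of 2.15 ± 1.00 (adjusted p = 0.892, and 0.176 with the block). In KO-labelled cells no response was detectable at this depth.

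**Figure D2:**
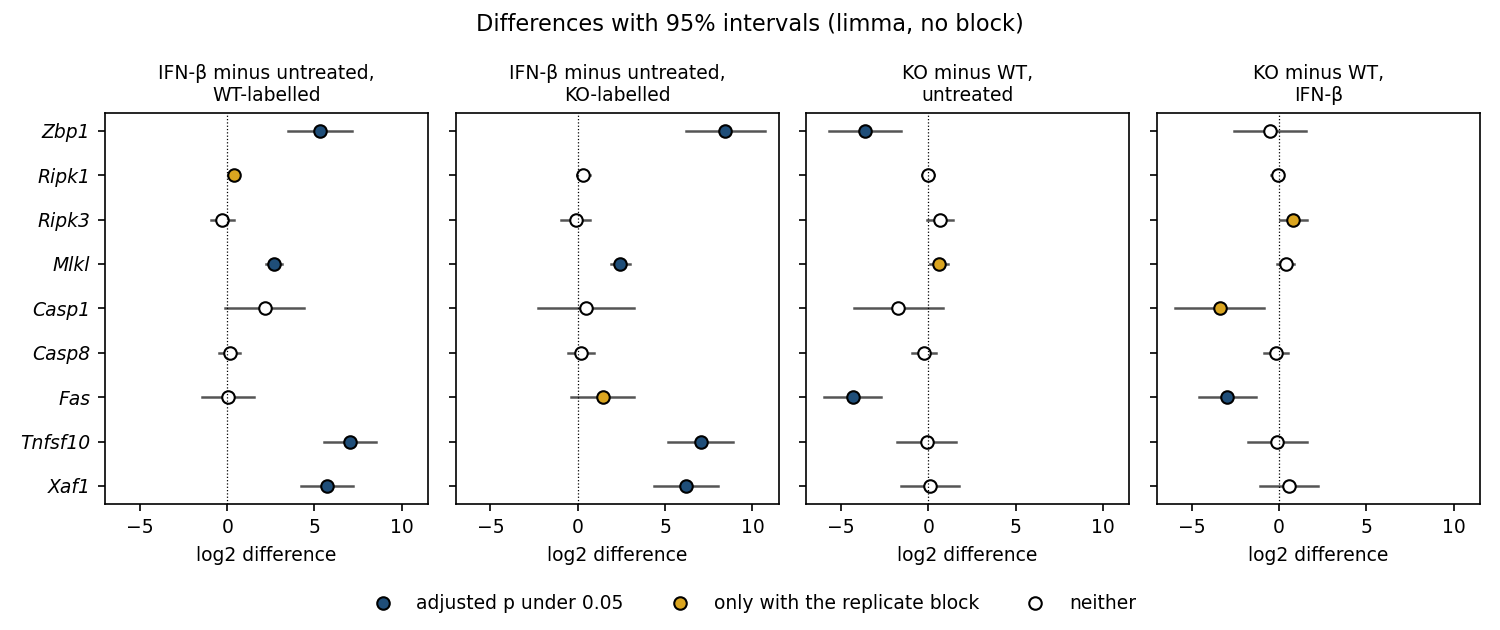
Log2 differences of the 9 genes in 4 comparisons, from limma without the replicate block, with 95% intervals. Filled blue points have an adjusted p under 0.05, yellow points only with the block, and open points with neither. The IFN-β panels show the same 4 genes in blue, and the untreated genotype panel shows Zbp1 and Fas below 0.

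The genotype comparison asked whether these genes differed between KO-labelled and WT-labelled cells. Fas was lower in KO-labelled cells in both treatments and Zbp1 was lower untreated, and no member was called higher. The 2 lower calls untreated stand beside 3.23% of all genes called lower, and the 1 lower call with IFN-β beside 3.64%, while 3% and 2.92% of all genes were called higher. The median difference of the 9 genes was −0.09 untreated and −0.10 with IFN-β, against 0 over all genes tested. With the replicate block the background was far higher. It called 13.5% of all genes higher and 13.1% lower untreated, and 12.7% higher and 13.3% lower with IFN-β. Beside those shares, the block called Mlkl higher and Fas and Zbp1 lower untreated, and Ripk3 higher and Fas lower with IFN-β. Casp1 was also lower there with the block, but it passed the filter only through the WT-labelled IFN-β libraries, so nothing is read from that call. In bulk libraries, fewer cells with a transcript and less of it per cell cannot be told apart.

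The Fas mean was 890.1 ± 522 normalised reads (SD, n = 3) in untreated WT-labelled cells and 39.7 ± 25.1 (n = 2) in KO-labelled cells, 22.4 times lower. With IFN-β the means were 837 ± 383 and 105 ± 54.1, 7.98 times lower. The highest KO-labelled library, at 143, was below the lowest WT-labelled library, at 291. The untreated difference was −4.34 ± 0.73 (adjusted p = 0.00868) and ended only when the first untreated KO-labelled library was left out (adjusted p = 0.059). The difference with IFN-β was −2.96 ± 0.73 (adjusted p = 0.046, and 0.0516 with edgeR). It was lost without WT-labelled library 2 or 3 of either treatment, or either treated KO-labelled library (adjusted p up to 0.22). With the block both Fas differences held with each library left out in turn (adjusted p up to 0.00031 untreated and 0.0024 with IFN-β).

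Zbp1 averaged 49 ± 26.4 normalised reads untreated in WT-labelled and 5.65 ± 7.99 in KO-labelled cells, 8.68 times lower. The difference was −3.64 ± 0.91 (adjusted p = 0.0499, 0.0646 with edgeR and 0.00861 with the block). Without the block the call held only when KO-labelled untreated library 2 was left out, and was lost without any other library (adjusted p up to 0.15). With the block it held with each library left out in turn (adjusted p up to 0.032). With IFN-β, the means were 1733 ± 153 and 1249 ± 315, and the difference of −0.49 ± 0.91 was not called (adjusted p = 0.83).

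Mlkl and Ripk3, the substrate and its kinase, had higher means in KO-labelled cells. Mlkl averaged 184 ± 52.9 and 277 ± 19.8 normalised reads untreated, a difference of 0.62 ± 0.22 (adjusted p = 0.15, and 0.0123 with the block). The blocked call was lost without either KO-labelled untreated library (adjusted p up to 0.085). With IFN-β the Mlkl means were 1155 ± 44.1 and 1505 ± 117 (0.38 ± 0.22, adjusted p = 0.387). Ripk3 averaged 238 ± 77.2 and 406 ± 47.6 with IFN-β, a difference of 0.82 ± 0.34 (adjusted p = 0.203) that was 0.55 ± 0.17 with the block (adjusted p = 0.0417). That blocked call held only without WT-labelled untreated library 2 or WT-labelled IFN-β library 1, and was lost without any other library (adjusted p up to 0.33). Untreated, Ripk3 averaged 286 ± 86.5 and 443 ± 15 (0.68 ± 0.34, adjusted p = 0.294).

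Casp1 averaged 19.3 ± 15.4 normalised reads in WT-labelled cells with IFN-β, from 59 reads in all, against 1 read in KO-labelled cells. The ratio of means was 42.3, and that of pooled reads had a counting interval of 6.92 to 1609. The log2 difference was −3.40 ± 1.12, given as a description because the same WT-labelled libraries kept Casp1 in the test. Without WT-labelled IFN-β library 2 or 3, Casp1 no longer passed the filter. Untreated, KO-labelled cells held 0 Casp1 reads against 11, but WT-labelled library 1 also held 0, so the groups overlapped. The WT-labelled mean was 1.21 times the KO-labelled floor of 3 reads, and the difference of −1.72 ± 1.12 was not called (adjusted p = 0.44). Ripk1 (−0.04 ± 0.15 untreated and −0.08 ± 0.15 with IFN-β) and Casp8 (−0.23 ± 0.30 and −0.17 ± 0.30) had overlapping groups in both treatments. Tnfsf10 also overlapped in both treatments, with a difference of −0.10 ± 0.75 with IFN-β (95% interval −1.78 to 1.59). Xaf1 overlapped untreated, and with IFN-β both KO-labelled libraries were higher without passing the test (0.57 ± 0.74, adjusted p = 0.737).

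The interaction tested whether the IFN-β response itself differed between the genotypes. No gene of 12313 was called by limma (0%), with 36 at an unadjusted p under 0.05, and none with the replicate block, with 151. The edgeR fit called none and DESeq2 called 1, Slfn2, each with 39 at an unadjusted p under 0.05. All these unadjusted counts lie far below a 0.05 share of the genes tested, which well-calibrated p-values would give without any interaction. The tests were thus conservative, and the lack of calls does not show that the genotypes respond alike. Among the 9 genes the largest interaction was that of Zbp1, 3.15 ± 1.29 (95% interval 0.23 to 6.06, unadjusted p = 0.037, adjusted p = 1), in the direction of a larger rise in KO-labelled cells. Its untreated KO-labelled level rests on 12 reads. Fas had 1.39 ± 1.03 (95% interval −0.94 to 3.72). With the replicate block Fas (1.39 ± 0.30) and Zbp1 (3.15 ± 1.07) were among the 151 genes at an unadjusted limma p under 0.05. Neither was called after adjustment. Mlkl, Tnfsf10 and Xaf1 had −0.24 ± 0.32, −0.01 ± 1.06 and 0.48 ± 1.05, with intervals of −0.96 to 0.47, −2.39 to 2.37 and −1.89 to 2.85. The interval of Mlkl is the narrowest of these, and those of Tnfsf10 and Xaf1 leave room for several-fold differences in either direction.

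**Figure D3:**
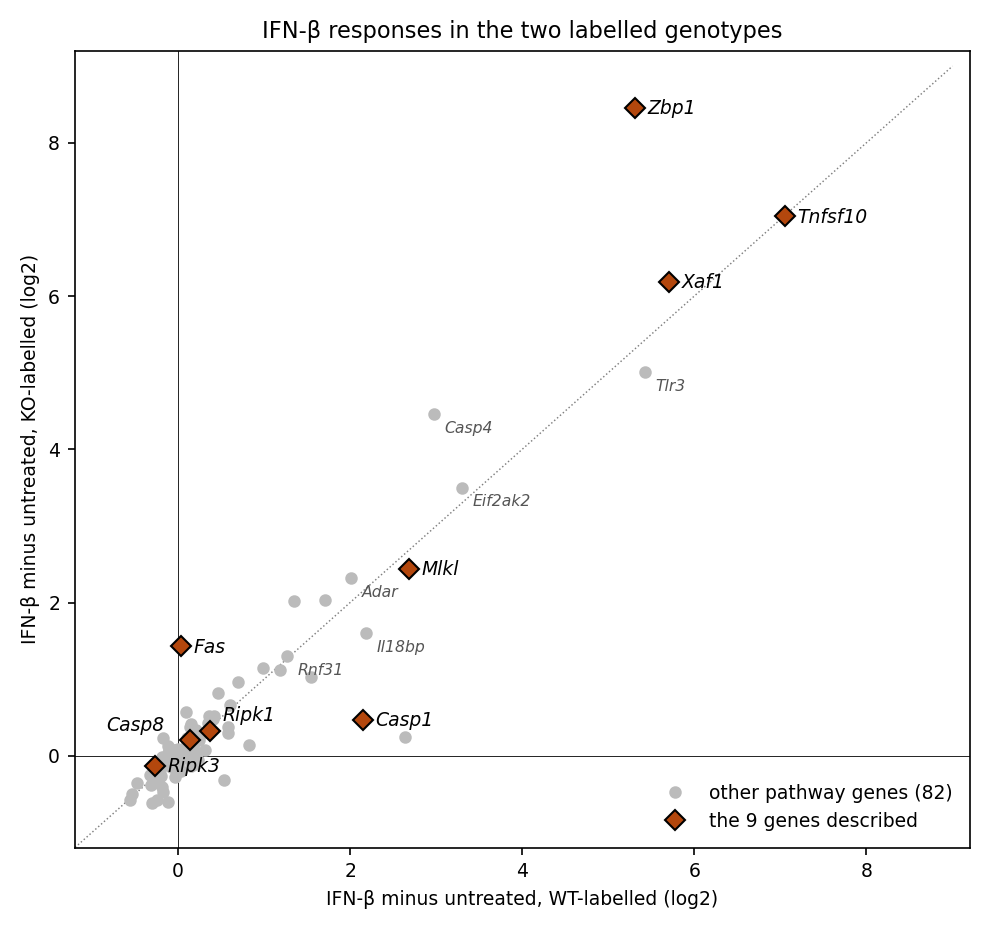
Log2 difference with IFN-β in WT-labelled cells (x axis) and KO-labelled cells (y axis), from limma, for the 9 genes (diamonds) and 82 other tested pathway genes (circles). The dotted line marks equal differences. Pathway genes called in either genotype are named. Zbp1 lies above the line at 5.31 and 8.45, and Tnfsf10 lies on it at 7.05 and 7.04.

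Levels can be set side by side between genes only per length, here as mean normalised reads per kb of annotated exon. In untreated WT-labelled cells the order was Fas (432), Casp8 (126), Ripk3 (125), Ripk1 (109), Mlkl (80), Zbp1 (13.9), Xaf1 (6.94), Casp1 (2.41) and Tnfsf10 (0.253). In that order Mlkl stood clear of Zbp1, and every other neighbouring pair had overlapping library ranges. With IFN-β the order became Mlkl (502), Zbp1 (491), Fas (406), Xaf1 (351), Ripk1 (141), Casp8 (140.5), Ripk3 (104), Tnfsf10 (53.6) and Casp1 (12.9). The executioner and the sensor now stood first, Xaf1 stood clear of Ripk1 and Tnfsf10 of Casp1, and the other neighbouring pairs overlapped. In untreated KO-labelled cells Ripk3 (193 reads per kb) stood clear of Mlkl (120.3), Ripk1 (107) and Casp8 (106), which overlapped, and these stood clear of Fas (19.3), Xaf1 (11.6), Zbp1 (1.6), Tnfsf10 (0.268) and Casp1 (0). In KO-labelled cells with IFN-β, Mlkl led with 654 reads per kb, followed by Xaf1 (528), Zbp1 (354), Ripk3 (177), Ripk1 (133), Casp8 (123), Tnfsf10 (55.3), Fas (50.8) and Casp1 (0.304). There Ripk1 overlapped Casp8 and Tnfsf10 overlapped Fas, and the other neighbours did not overlap.

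The genes whose log2 levels ran most like each member over the 10 libraries were taken by Pearson r, as a description of libraries that share group and replicate number. Mlkl was nearest to Tlr3 (0.998), a receptor for double-stranded RNA, then Zc3hav1 (0.99) and H2-D1 (0.989). Tnfsf10 was nearest to Parp9 (0.994), Ifi205 (0.993) and Samd9l (0.991), and Xaf1 to Ifi44 (0.994), Psmb8 (0.994) and Irgm2 (0.992). Zbp1 was nearest to Oasl2 (0.979), Apol9a (0.977) and Ifit1 (0.975). Ifit1 shared the untreated gap of Zbp1, with a mean of 809 ± 468 normalised reads in WT-labelled and 68.5 ± 64.3 in KO-labelled cells. Ripk1 was nearest to Alpk1 (0.99), Fas to Pwwp2b (0.988), Ripk3 to Brsk1 (0.97), Casp8 to Rpgrip1l (0.965) and Casp1 to Gla (0.935). None of these nearest genes was called with IFN-β in either genotype. The next nearest to Ripk1, Apol6 (0.977) and Nlgn2 (0.973), were called with IFN-β in WT-labelled but not in KO-labelled cells. Among the 9 genes, Tnfsf10 with Mlkl and with Xaf1 had r of 0.97, and Fas with Ripk3 had −0.80.

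Around the 9 genes, 103 other genes of 7 lists covered ligands and receptors, receptor complexes, necroptosis and nucleic acid sensing, caspases, pyroptosis, mitochondrial apoptosis and inhibitors of apoptosis. Of these, 82 were tested. IFN-β raised 6 in WT-labelled and 5 in KO-labelled cells and lowered none (12 and 10 raised with the block), beside 2.21% and 1.83% of all genes (4.68% and 3.37% with the block), with median differences of 0.10 and 0.07 against −0.03 over all genes tested. In both genotypes 3 of 12 sensing and necroptosis partners rose, and 5 with the block, where Ripk2 and Chmp4b (named after their values were seen) joined. Tlr3 rose by 5.43 ± 0.39 and 5.01 ± 0.48 in WT-labelled and KO-labelled cells. Eif2ak2, the double-stranded RNA-activated kinase PKR, rose by 3.30 ± 0.21 and 3.50 ± 0.26. Adar, the RNA-editing enzyme whose Z-RNA-binding form restrains ZBP1, rose by 2.01 ± 0.14 and 2.32 ± 0.18. In the receptor complexes 1 of 21 rose, Rnf31 (the HOIP subunit of the linear ubiquitin ligase), by 1.27 ± 0.16 and 1.30 ± 0.19. Its KO-labelled call ended when the first untreated or the second treated KO-labelled library was left out (adjusted p up to 0.094).

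Among 10 tested pyroptosis genes, Casp4, the sensor of cytosolic lipopolysaccharide, and Il18bp, the decoy of IL-18, were called in WT-labelled cells, and Casp4 in KO-labelled cells. With the block 4 were called in WT-labelled cells, Gsdmd and Naip2 joining, and 2 in KO-labelled cells, Casp4 and Naip2 (Gsdmd and Naip2 here named after their values were seen). Untreated, Naip2 held 22 reads over the WT-labelled and 19 over the KO-labelled libraries, and it passed the filter only through IFN-β libraries. Nothing is therefore read from the Naip2 calls, which the blocked counts of raised genes include. Casp4 rose from 95.5 ± 74.8 to 619.7 ± 128 normalised reads in WT-labelled cells (2.97 ± 0.63, adjusted p = 0.0482) and from 5.76 ± 5.18 to 132 ± 63.8 in KO-labelled cells (4.46 ± 0.77, adjusted p = 0.0178). The WT-labelled call held only without WT-labelled untreated library 2 or either untreated KO-labelled library, and was lost without any other (adjusted p up to 0.23). The KO-labelled call ended without the first untreated or the second treated library of that genotype (adjusted p up to 0.17). Il18bp went from 40.2 ± 18.8 to 175 ± 34.1 in WT-labelled cells (2.19 ± 0.43, adjusted p = 0.0296), a call that ended without untreated library 2 or 3, or any treated library, of that genotype (adjusted p up to 0.15). None of 17 mitochondrial apoptosis genes, 7 ligands and receptors or 5 inhibitors of apoptosis and antagonists was called with IFN-β by limma with or without the block, and none of 10 caspases and executioners without it. Pycard, the inflammasome adaptor, was listed at 0 in every library, as were Tnf, Ripk4, Gsdmc, Nlrp1a, Nlrc4 and Bcl2a1a. Fasl, the Fas ligand gene, held 1 read, in an untreated WT-labelled library.

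Between genotypes, 3 of the 82 were higher and 4 lower untreated, and 3 were higher and 3 lower with IFN-β. With the block these became 12 and 12, and 11 and 14. These shares of the 82 lie near those of all genes, 3% higher and 3.23% lower untreated and 2.92% and 3.64% with IFN-β (13.5%, 13.1%, 12.7% and 13.3% with the block), so nothing about the lists is read from the counts. The higher ones were Gsdmd, the pore former of pyroptosis, with means of 14.1 ± 3.28 in WT-labelled and 163 ± 40.4 in KO-labelled cells untreated (3.45 ± 0.41), Casp6, an executioner caspase (1.49 ± 0.16), and Cyld, a deubiquitinase of RIPK1 (1.22 ± 0.17). With IFN-β they differed by 2.93 ± 0.41, 1.54 ± 0.16 and 0.98 ± 0.17, and the last ended without the second treated KO-labelled library (adjusted p = 0.11). The lower ones in both treatments were Birc2 and Birc3, the ubiquitin ligases cIAP1 and cIAP2, and Tyro3, a receptor kinase (−0.91 ± 0.19 untreated and −0.81 ± 0.19 with IFN-β). The untreated Tyro3 call was lost without untreated library 2 or 3 or treated library 2 of WT-labelled cells, or either untreated KO-labelled library (adjusted p up to 0.16). The Tyro3 call with IFN-β held only without WT-labelled untreated library 1 or 2 (adjusted p up to 0.22). Casp4 was lower untreated (−3.78 ± 0.70, adjusted p = 0.0144), a call that ended without the first untreated KO-labelled library (adjusted p = 0.079). With IFN-β its difference of −2.29 ± 0.70 had an adjusted p of 0.0975, and of 0.00267 with the block.

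Casp1, Casp4, Birc2 and Birc3 lie on one stretch of chromosome 9 that runs to Yap1. Of the 20 genes listed there 13 were tested, and 7 were lower in KO-labelled cells untreated and 7 with IFN-β (10 and 10 with the block), with none higher. Over all genes 3.23% and 3.64% were lower (13.1% and 13.3% with the block). The stretch was listed with earlier results of these data known. Pdgfd, Mmp13 and Mmp3, counted as lower in both treatments, held 0 to 2 reads per KO-labelled group. They passed the filter only through WT-labelled libraries, as did Casp1, which is in the blocked count with IFN-β. The counts are therefore given as a description, and nothing is read from them. Casp4 starts 10.3 kb from the start of Casp1, Birc2 2519.7 kb, Birc3 2550.2 kb and Yap1 2633.5 kb. Birc2 averaged 2331 ± 666 normalised reads untreated in WT-labelled and 423 ± 36.2 in KO-labelled cells (−2.42 ± 0.32), and Birc3 1558 ± 399 and 47.4 ± 31.5 (−5.15 ± 0.44). Yap1, a transcriptional coactivator, averaged 46219 ± 7693 and 2836 ± 157. Mmp3, a matrix protease, averaged 273 against 0 reads, at least 91.6-fold lower. Not every gene followed. Dync2h1, 1630 kb along, averaged 251 and 248 and differed by −0.12 (adjusted p = 0.92).

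Neighbours of Fas were looked at in the same way, a region chosen after its values were seen. Of 17 protein-coding neighbours reaching within 500 kb, 8 were tested, and 5 were lower in KO-labelled cells untreated and 1 with IFN-β (5 and 2 with the block), beside 3.23% and 3.64% of all genes (13.1% and 13.3% with the block). The cholesterol hydroxylase gene Ch25h starts 183.1 kb beyond the start of Fas. Untreated it held 27.5 to 167 normalised reads in WT-labelled and 0 to 0.942 in KO-labelled libraries. With IFN-β it held 135 to 295 and 5.47 to 11.6. Its differences, −6.00 untreated and −4.47 with IFN-β, are a description, because it passed the filter only through WT-labelled libraries. Ch25h is among the 5 lower calls untreated and is the 1 with IFN-β, so those counts are a description too. Lipa and the interferon-stimulated genes Ifit2, Ifit3 and Ifit1 differed by −1.55, −1.64, −2.32 and −3.73 untreated (adjusted p from 0.0058 to 0.026), and none of these 4 was called with IFN-β without the block. Lipa differed by −1.19 with IFN-β (adjusted p = 0.07, and 0.00022 with the block). On the other side of Fas, Acta2 (−0.36, adjusted p = 0.93) and Stambpl1 (−0.38, adjusted p = 0.23) were not called, though Acta2 ranged from 1898 to 33434 normalised reads between the untreated KO-labelled libraries.

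**Figure D4:**
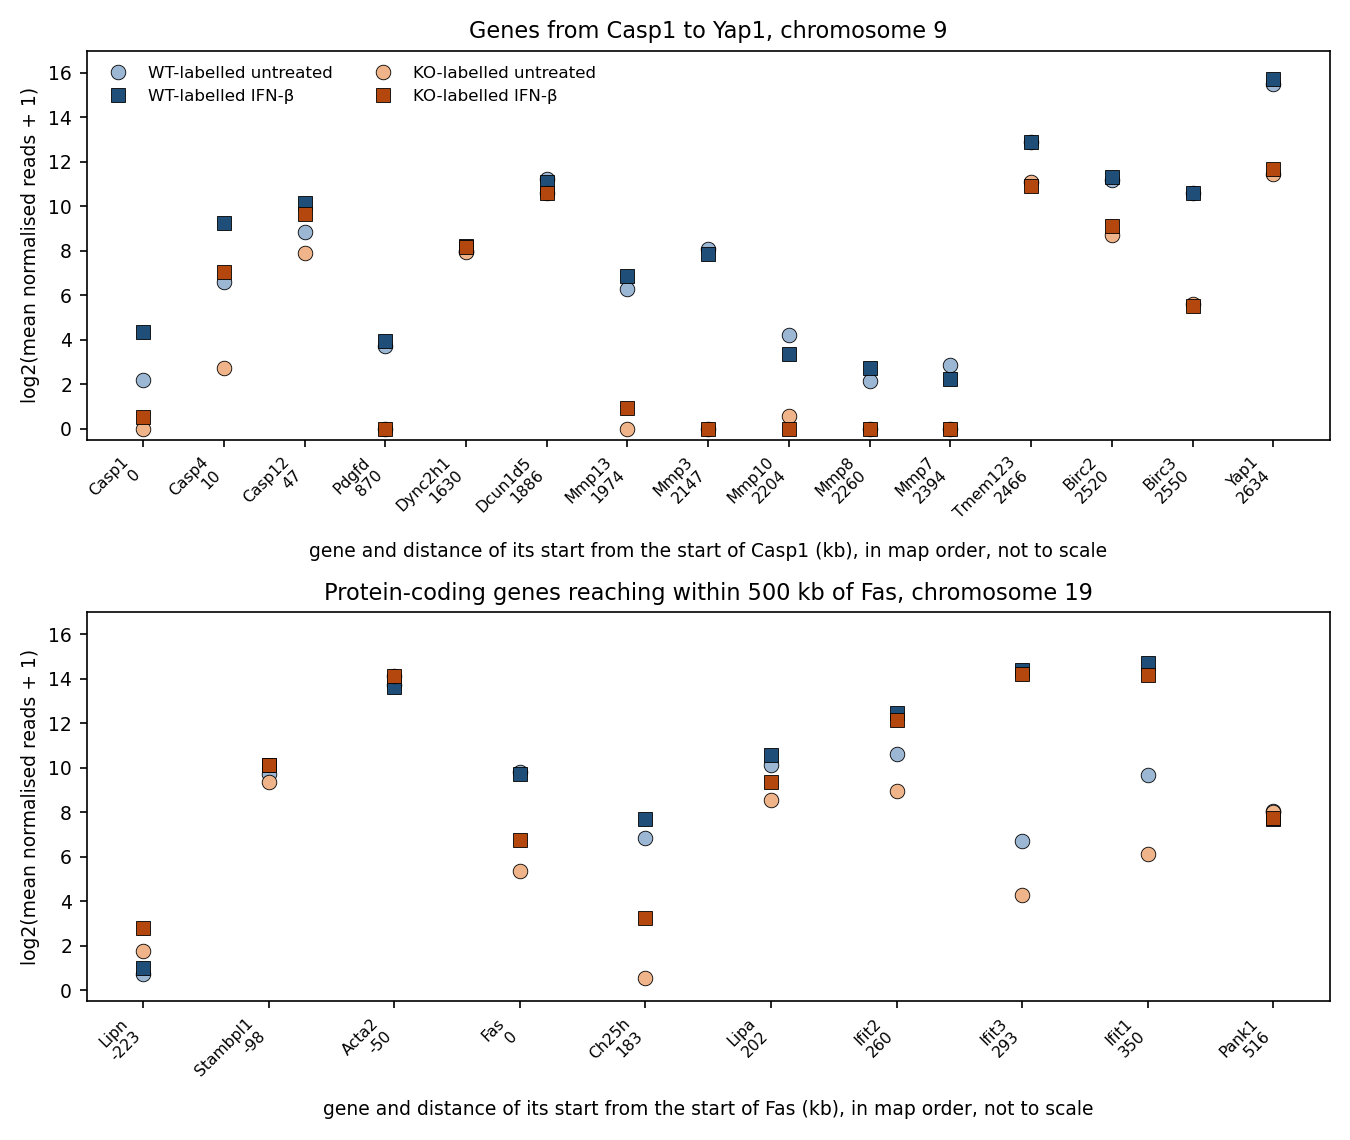
Group means as log2 of mean normalised reads plus 1 (y axis) for 15 of 20 genes from Casp1 to Yap1 (top) and for Fas and its neighbours (bottom, 10 of 15 listed genes), in map order with the distance between start coordinates in kb. Genes under 5 normalised reads in all 4 group means are left out. Within each treatment, orange KO-labelled symbols fall below blue WT-labelled symbols at Casp4, Mmp3, Birc3, Yap1 and Fas, and meet them at Dync2h1 and Pank1.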

How the data were processed

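Gene expression was measured by RNA sequencing in 10 libraries of 4 groups, grouped by the labels. Per the submitters' processing notes the tools were cutadapt 1.13, STAR 2.5.2a, HTSeq and DESeq2 with the mm10 build. The deposited signal is a gene read count that the authors divided by a library's size factor, as read from the values: each is a whole multiple of 1 step, within 0.001 reads. The annotation and strand setting are not given in the sources used here.

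The members and gene lists were chosen with earlier results of these data known. Log2 values of the normalised count plus 1 were fitted by limma-trend (R 4.3.3 with limma 3.58.1), with a mean per group over all 10 libraries. Genes were kept by filterByExpr (edgeR 4.0.16, minimum count 10), and p-values were adjusted by Benjamini-Hochberg over 12313 genes, with calls at 0.05, two-sided. An adjusted p is from limma unless another tool is named. The pseudocount pulls log2 differences of low genes towards 0, but they average logs, so unequal libraries can raise them above the ratio of means. With IFN-β in KO-labelled cells, the log2 difference gave a fold of 131 for Tnfsf10 against a ratio of means of 206. For Zbp1 it gave 351 against 221. Intervals on ratios and the floor of 3 reads cover counting error only. The scripts were tested on simulated data.

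Same-number libraries of different groups correlated at 0.48 to 0.87 in their deviations from group means (13 pairs) and different numbers at −0.87 to 0.32 (24 pairs). By the limit of 0.1 the numbers pair the libraries, from the data alone, since the labels do not say what a number marks. Alternatives were the replicate block, pseudocounts of 0.5 and 5, no filter, TMM scaling, edgeR, DESeq2 1.42.0 and each library left out, and, added after seeing the data, the last together with the block.

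Named genes were the 9 members, up to 8 called genes per list by size of change, members of a list at 0, and the 3 genes with the highest Pearson r to each member. Positions and exon lengths are from GENCODE M21 (GRCm38). No sample was left out.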

Additional observations from a re-analysis of the deposited data

How the results depend on the processing

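The rises of Zbp1, Mlkl, Tnfsf10 and Xaf1 with IFN-β kept their call in both genotypes under every alternative run. With 2 or 3 libraries a group, small differences are the limit, as are reads for Casp1 and the untreated Tnfsf10 and Zbp1 levels. Calls over all genes went from 272 to 609 with the replicate block and 410 with DESeq2 (IFN-β, WT-labelled), from 227 to 429 with the block (IFN-β, KO-labelled), from 767 to 3275 and 1513 (genotype, untreated) and from 807 to 3203 and 1504 (genotype, IFN-β), and DESeq2 called 1 interaction. Over the libraries left out they ran from 134 to 218 for IFN-β in KO-labelled cells, 340 to 694 for the untreated genotypes and 286 to 849 for the genotypes with IFN-β. Of the 9 genes, the block called 1 higher in each genotype comparison and 2 lower with IFN-β. The 2 lower untreated became 1 with a pseudocount of 0.5, no filter or edgeR, and the 1 lower with IFN-β became 0 with edgeR. With libraries left out, 0 to 1 was higher and 0 to 2 lower untreated, and 0 to 1 lower with IFN-β. The sign changed only for differences that did not pass the test without the block, and the cause was not tested. Fas in WT-labelled cells with IFN-β was −0.08 with edgeR and −0.09 with DESeq2. Between untreated genotypes Tnfsf10 was 0.16 with the block, 0.08 with edgeR and 0.12 with DESeq2, and Xaf1 −0.08 with the block. With IFN-β, Tnfsf10 was 0.15, 0.01 and 0.04, and Casp8 0.04 with the block. The interaction of Tnfsf10 was 0.08 with a pseudocount of 0.5 and that of Xaf1 −0.17 with edgeR and −0.16 with DESeq2. With libraries left out, IFN-β differences ran from −0.08 to 0.33 for Casp8 and −0.64 to 0.50 for Fas (WT-labelled), and from 0 to 0.93 for Casp1 and −0.03 to 0.44 for Casp8 (KO-labelled). Untreated genotype differences ran from −0.17 to 0.10 for Ripk1, −1.06 to 0.88 for Tnfsf10, −1.46 to 1.65 for Xaf1, −2.77 to 0.59 for Tnfrsf21 and −0.06 to 2.58 for Il18. Those with IFN-β ran from −0.20 to 0.04 for Ripk1, −0.40 to 0.06 for Casp8 and −0.85 to 0.65 for Tnfsf10. Interactions ran from −0.18 to 0.08 for Ripk1, −0.11 to 0.42 for Ripk3, −0.17 to 0.29 for Casp8, −0.98 to 0.96 for Tnfsf10 and −1.08 to 2.03 for Xaf1. Casp1 gave no value without WT-labelled IFN-β library 2 or 3, when it fell below the filter.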
